A study of Mus musculus with 10 samples.

Results

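The 10 genes described here encode heat shock proteins of the cytosol and of the mitochondrial matrix: Hsp90aa1, Hsp90ab1, Hspa1a, Hspa1b, Hspa8, Hsph1, Dnajb1, Hspd1, Hspe1 and Hspb1. They were chosen by name from a table of 57825 gene entries, and all 10 passed the filter of a mean of at least 0.5 FPKM that left 15704 genes for testing. The values are FPKM, fragments counted for a gene, divided by its length and by the number of fragments of its sample. CD8+ T cells from the spleen of female Balb/c mice were co-cultured with 4T1, a tumor line of the mouse mammary gland, to ask how sodium acetate (NaAc) acts on T cells facing tumor cells. Cells of both groups were isolated with a magnetic kit and activated for 12 h on plate-bound anti-CD3 with anti-CD28 (1 µg/ml) and IL-2 (15 ng/ml). They were then kept for 24 h without NaAc (CD8+4T1, 5 samples) or with 5 mM NaAc (CD8+4T1+NaAc, 5 samples) and co-cultured with 4T1 cells for 48 h. RNA came from purified CD8+ T cells, by a step after co-culture that the methods do not describe, the labels give day 3, and there was no group of T cells without 4T1 cells. Neither the labels nor the methods say that the 5 samples of a group came from separate animals or cultures, so p-values measure the spread between these samples, which may be technical.

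Heat shock proteins are molecular chaperones that bind unfolded or partly folded proteins and help them fold, assemble or be degraded. HSP70 proteins take up clients handed over by J-domain proteins, HSP110 proteins exchange their nucleotide, and HSP90 proteins act late on kinases, receptors and other signaling proteins. Some of the genes are transcribed at all times and others mainly when the heat shock factor HSF1 binds heat shock elements, inverted repeats of the letters GAA in their promoters. Activated T cells grow and divide fast and are known to make large amounts of the constitutive chaperones.

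The promoters are shown because these genes share a known regulator and because Hspd1 and Hspe1 are read in opposite directions from a single stretch of DNA. The set of RefSeq promoter windows used here (GRCm38.p6) held 10 windows for 7 of the 10 genes. That set did not include Hsp90aa1, Hsp90ab1 and Hspa8. The 250 bases before each start were searched on both strands for paired units, TTCNNGAA or GAANNTTC, which read the same on both strands and may overlap each other. Such a pair was found in 7 of the 10 windows and in 12.8% of all 32851 windows. The 7 windows are not independent: both windows of Hsph1 hold the same match, a window of Hspd1 and that of Hspe1 share theirs, and Hspa1a and Hspa1b are copies. Capitals mark the matches in the following sequences, each read 5′ to 3′ along the strand given.
Hspd1 and Hspe1, between the farther of the 2 starts of Hspd1 and that of Hspe1, chr1:55087933-55088147, plus strand: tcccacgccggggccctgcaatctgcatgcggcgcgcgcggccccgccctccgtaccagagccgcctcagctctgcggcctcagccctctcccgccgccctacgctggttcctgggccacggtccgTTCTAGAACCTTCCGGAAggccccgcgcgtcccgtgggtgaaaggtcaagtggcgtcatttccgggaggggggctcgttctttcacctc
Hspa1a, chr17:34972157-34972406, minus strand: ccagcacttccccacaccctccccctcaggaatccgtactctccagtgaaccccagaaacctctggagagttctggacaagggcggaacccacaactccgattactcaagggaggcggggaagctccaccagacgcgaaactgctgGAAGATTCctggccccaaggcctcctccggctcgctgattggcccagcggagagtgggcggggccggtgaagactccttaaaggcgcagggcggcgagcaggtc
Hsph1, chr5:149636337-149636586, minus strand: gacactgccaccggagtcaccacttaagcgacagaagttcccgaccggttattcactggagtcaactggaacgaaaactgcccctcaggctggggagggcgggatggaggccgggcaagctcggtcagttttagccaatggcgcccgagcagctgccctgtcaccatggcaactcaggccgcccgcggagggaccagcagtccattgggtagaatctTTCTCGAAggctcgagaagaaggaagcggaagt
Hspb1, chr5:135887669-135887918, plus strand: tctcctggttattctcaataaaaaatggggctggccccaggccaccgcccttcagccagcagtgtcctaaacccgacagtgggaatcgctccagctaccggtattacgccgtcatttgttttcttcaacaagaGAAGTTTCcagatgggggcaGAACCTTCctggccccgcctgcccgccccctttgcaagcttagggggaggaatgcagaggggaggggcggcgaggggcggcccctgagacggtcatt
The 215 bases between these starts of Hspd1 and Hspe1 held 3 overlapping matches in a single run. Pairs that overlap to make 3 units in a row (GAANNTTCNNGAA or TTCNNGAANNTTC) were found in 0.466% of all windows, and here in 1 of those of Hspd1 and in that of Hspe1. The match in Hspa1a lay 104 to 97 bases before the start, and that of Hspb1 nearest to its start 97 to 90 bases before it. Hspa1b, the neighbouring copy of Hspa1a, had the same bases at 247 of 250 positions and the same match at the same place. Both windows of Dnajb1 were without these letters, but the downstream window lies past the other start, within the gene, and holds coding bases. A match is a description of letters and says nothing on whether a factor was bound in these cells.

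The FPKM of a sample referred to between 16306449 and 17443397 fragments in CD8+4T1 and between 16503704 and 18853728 in CD8+4T1+NaAc. The listed genes held 95.5% to 97.9% of these fragments in CD8+4T1 and 89.8% to 92.1% in CD8+4T1+NaAc. The FPKM of all genes together summed to between 310953 and 335140 in CD8+4T1 and to between 282984 and 295918 in CD8+4T1+NaAc. The results of the 10 genes and of the pathway lists are therefore also given after rescaling every sample to the same summed FPKM, which moved the median difference over all genes tested from -0.02 to 0.16 on the log2 scale. The T cell label was checked by its markers. Cd8a was between 72.2 and 81.9 FPKM in the 10 samples and was not called. After rescaling it was called higher with NaAc (log2 fold change 0.14, adjusted p = 0.0475). Cd3e ran from 32.6 to 35.4 FPKM in CD8+4T1 and from 24.1 to 29.7 FPKM in CD8+4T1+NaAc (adjusted p = 0.000608). Of the 14 T cell markers 7 were called lower and 1 higher, and after rescaling 5 lower and 4 higher. Epithelial and 4T1 markers were also present and differed between the groups: the 20 genes of that list summed to 37.3 to 50.6 FPKM in CD8+4T1 and to 171 to 374 FPKM in CD8+4T1+NaAc. Of the 12 of them that were tested 9 were called higher, among them Krt8, a keratin of simple epithelia (1.77 to 5.66 against 19.96 to 53.5 FPKM), whereas Krt5 was at or below 0.0279 FPKM throughout. Sample 1 of CD8+4T1+NaAc stood apart, with 20233 genes detected where the rest of its group had 24681 to 25088, and sample 1 of CD8+4T1 in the same way, with 22291 against 23786 to 24054.

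Of the 10 heat shock genes 8 fell with NaAc, Hspb1 rose and Hspa8 was not called. In all genes tested, 19.0% were called lower, 17.6% higher and 36.6% in either direction (limma, adjusted p under 0.05). The groups did not overlap for 8 of the 10, all but Hsp90aa1 and Hspa8, against 26.4% of all genes tested. The median log2 fold change of the 10 was -0.34. After rescaling to the same total, Hsp90ab1, Hspa1a and Hspe1 remained called lower and Hspb1 higher, where 8.83% of all genes were called lower and 31.2% higher. The other 5 kept a negative value without being called, and Hspa8 changed sign. Together the 10 genes summed to 2118 to 2316 FPKM in CD8+4T1 and to 1684 to 1847 FPKM in CD8+4T1+NaAc, or 0.677% to 0.737% and 0.547% to 0.599% of the fragments. In bulk RNA, fewer cells that express a gene and less RNA of it per cell cannot be told apart.

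**Figure D1:**
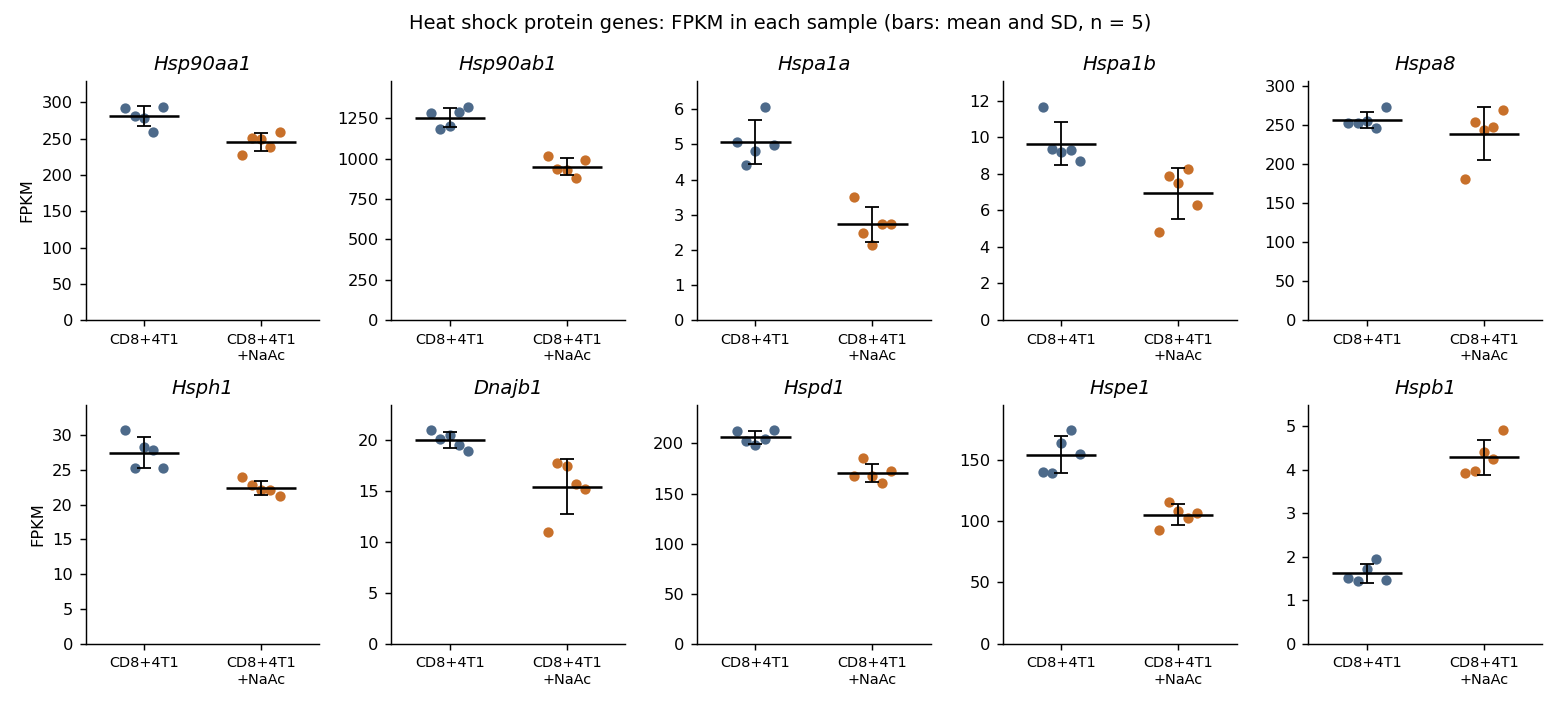
FPKM (vertical axes, each from 0) of the 10 heat shock genes in the 5 samples of CD8+4T1 (blue) and the 5 of CD8+4T1+NaAc (orange), with mean and SD. The groups are apart for all but Hsp90aa1 and Hspa8; the low sample of Hspa8 with NaAc is at 181 FPKM.

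Among the cytosolic HSP90 pair, Hsp90ab1 had the highest level of the 10 genes in every sample. Hsp90ab1 (ENSMUSG00000023944), the constitutive form, was listed at chromosome 17, 45878701 to 45884197. Here and in the following, positions of genes are those of the deposited table, whose build is not given in the sources used here and differs from that of the promoter windows. Its FPKM were 1279, 1182, 1199, 1285 and 1321 in samples 1 to 5 of CD8+4T1 and 1013, 937, 927, 881 and 989 in those of CD8+4T1+NaAc. Every sample with NaAc lay below every sample without it. The group means were 1253 ± 59.9 and 949.6 ± 52.2 FPKM (SD, n = 5), and the log2 fold change was -0.40 (SE 0.059, adjusted p = 0.000438), and with 44703 to 65382 fragments per sample counting error was small. After rescaling to the same total the log2 fold change was -0.22 (adjusted p = 0.0145).

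Hsp90aa1 (ENSMUSG00000021270; chromosome 12, 110657039 to 110669162), the form that stress induces, was lower in FPKM and changed less. It was at 292, 282, 279, 259 and 294 FPKM in CD8+4T1 and at 227, 251.6, 249, 239 and 259.6 FPKM in CD8+4T1+NaAc. The groups overlapped slightly, since the highest sample with NaAc was just above the lowest without. Its log2 fold change was -0.20 (SE 0.055, adjusted p = 0.0169), and -0.02 after rescaling (adjusted p = 0.832). Within a sample, Hsp90aa1 stood at 0.201 to 0.238 of the FPKM of Hsp90ab1 in CD8+4T1 and at 0.225 to 0.271 in CD8+4T1+NaAc. This ratio, which no scaling of a sample can move, was higher with NaAc by 0.20 on the log2 scale (exact permutation test, two-sided, p = 0.0317, 0.0476 after adjustment over 6 ratios). Sample 1 of CD8+4T1+NaAc lay within the range of CD8+4T1, and the other 4 lay above it. Without sample 2, 3 or 4 of that group in turn, the p was 0.0556.

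The stress-inducible HSP70 genes fell, and the constitutive one was not called. Hspa1a (ENSMUSG00000091971; chromosome 17, 35188166 to 35191132) had the largest decrease of the 10. It was at 5.06, 4.41, 4.82, 6.07 and 4.98 FPKM in CD8+4T1 and at 3.51, 2.48, 2.14, 2.73 and 2.74 FPKM in CD8+4T1+NaAc. All samples with NaAc lay below all without, at 105 to 297 fragments per sample. The mean fell from 5.07 ± 0.617 to 2.72 ± 0.502 FPKM (SD, n = 5), with a log2 fold change of -0.88 (SE 0.13, adjusted p = 0.000400), and of -0.71 after rescaling (adjusted p = 0.00156).

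Hspa1b (ENSMUSG00000090877; chromosome 17, 35175412 to 35178214) encodes a nearly identical HSP70 protein. It was at 11.7, 9.37, 9.19, 9.33 and 8.71 FPKM in CD8+4T1 and at 4.80, 7.89, 7.48, 8.25 and 6.29 FPKM in CD8+4T1+NaAc. The groups did not overlap, though sample 1 was the highest of its group without NaAc and the lowest with it. Its fall had a log2 fold change of -0.49 (SE 0.14, adjusted p = 0.0202). It moved to -0.29 without both samples numbered 1, where it was still called (adjusted p = 0.0173), and to -0.31 after rescaling, where it was not (adjusted p = 0.109). Reads of the near-identical pair could be split between them by the counting. Their sum was 13.7 to 16.7 FPKM in CD8+4T1 and 8.31 to 11.0 FPKM in CD8+4T1+NaAc (log2 fold change -0.60, SE 0.086, adjusted p = 0.000356).

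Hspa8 (ENSMUSG00000015656; chromosome 9, 40712280 to 40721383), the constitutive HSP70 that also uncoats clathrin vesicles, was not called. It was at 253, 253, 254, 246 and 273 FPKM in CD8+4T1 and at 181, 254, 243, 247 and 269 FPKM in CD8+4T1+NaAc. The first sample with NaAc was far below the other 9, whose ranges overlapped. The log2 fold change was -0.11, with a 95% interval from -0.33 to 0.10 (adjusted p = 0.402). Without both samples numbered 1 it was -0.02 (adjusted p = 0.787), and after rescaling 0.07 (adjusted p = 0.609).

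The table also listed processed pseudogenes of Hspa8, copies made from its mRNA. The listed copies held 43.1% to 50.4% of the fragments of Hspa8 and its copies together, nearly all of them in Gm15459, whose level was 511 ± 38.7 FPKM in CD8+4T1 and 438 ± 37.5 in CD8+4T1+NaAc (SD, n = 5). Reads of Hspa8 and of such a copy may not be distinguishable, so the level of Hspa8 itself is uncertain. With all copies added, the log2 fold change was -0.16 (adjusted p = 0.153, 95% interval -0.35 to 0.02), again not called.

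Within a sample, Hspa1a plus Hspa1b stood at 0.0505 to 0.0666 of the FPKM of Hspa8 in CD8+4T1 and at 0.0339 to 0.0465 in CD8+4T1+NaAc. The groups did not overlap, and the log2 difference was -0.49 (exact permutation test, two-sided, p = 0.00794, the smallest that the splits of 5 and 5 samples can give; 0.0238 after adjustment over 6 ratios). With the copies of Hspa8 added, the difference was -0.44 with the same p (exact permutation test).

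Both partners of HSP70 among the 10 also fell. Dnajb1 (ENSMUSG00000005483; chromosome 8, 84334822 to 84339282) encodes the J-domain protein HSP40, which stimulates the ATPase of HSP70. It was at 21.0, 20.1, 20.6, 19.6 and 18.9 FPKM in CD8+4T1 and at 11.0, 17.8, 17.4, 15.7 and 15.2 FPKM in CD8+4T1+NaAc. The groups did not overlap, and sample 1 with NaAc was the lowest by a wide margin. With NaAc Dnajb1 had a log2 fold change of -0.39 (SE 0.11, adjusted p = 0.0202), -0.26 without both samples numbered 1 (adjusted p = 0.00675) and -0.22 after rescaling (adjusted p = 0.144). Relative to Hspa8 it was lower by 0.28 on the log2 scale (exact permutation test, two-sided, p = 0.0238, adjusted 0.0476), with ranges of 0.0695 to 0.0833 and 0.0569 to 0.0722 that overlapped. Without both samples numbered 1 this difference was -0.24 and was no longer called (exact permutation test, p = 0.0857).

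Hsph1 (ENSMUSG00000029657; chromosome 5, 149537752 to 149559841), the HSP110 that exchanges the nucleotide of HSP70, also fell. It was at 30.7, 25.3, 28.3, 27.9 and 25.3 FPKM in CD8+4T1 and at 23.99, 22.8, 22.1, 22.2 and 21.2 FPKM in CD8+4T1+NaAc. The groups did not overlap. The log2 fold change was -0.29 (SE 0.062, adjusted p = 0.00406), and -0.11 after rescaling (adjusted p = 0.250). The ratio of Hsph1 to Hspa8 differed by -0.18 on the log2 scale, which was not called (exact permutation test, two-sided, p = 0.254). Without sample 1 of CD8+4T1+NaAc, which was low in Hspa8, the difference in that ratio was -0.30 (exact permutation test, p = 0.0159), and without sample 5 of that group it was -0.11 (exact permutation test, p = 0.452).

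**Figure D2:**
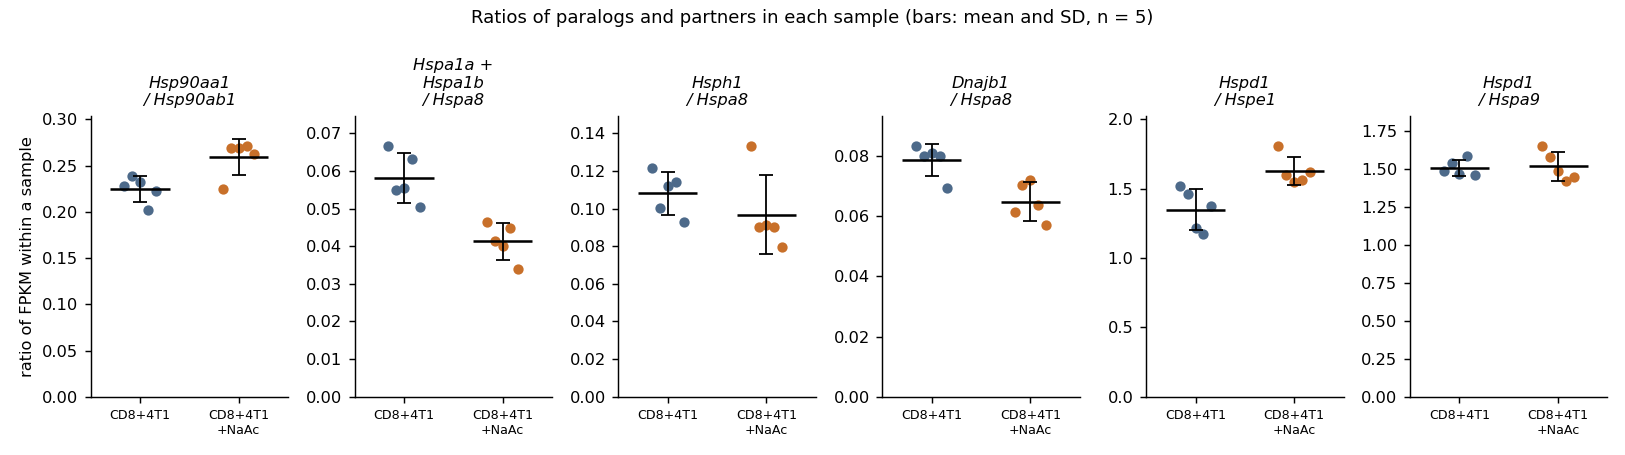
Ratio of FPKM within each sample (vertical axes, from 0) for 6 pairs of paralogs or partners, in CD8+4T1 (blue) and CD8+4T1+NaAc (orange), with mean and SD (n = 5). The groups are apart for Hspa1a plus Hspa1b to Hspa8 and for Hspd1 to Hspe1, both as listed, and overlap for the others; the level of Hspe1 is uncertain.

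The mitochondrial pair Hspd1 and Hspe1 encodes the HSP60 chaperonin and its lid HSP10, which close around a folding client in the matrix. Hspd1 (ENSMUSG00000025980; chromosome 1, 55116994 to 55127402) was at 213, 202, 199, 204 and 213 FPKM in CD8+4T1 and at 168, 185, 167, 161 and 173 FPKM in CD8+4T1+NaAc. The groups did not overlap. Hspd1 had a log2 fold change of -0.27 (SE 0.050, adjusted p = 0.00156), and -0.10 after rescaling (adjusted p = 0.170).

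Hspe1 (ENSMUSG00000073676; chromosome 1, 55127291 to 55130466) fell further. It was at 139.9, 139, 163, 174 and 155 FPKM in CD8+4T1 and at 92.8, 116, 108, 103 and 106 FPKM in CD8+4T1+NaAc. All samples with NaAc lay below all without. The log2 fold change was -0.55 (SE 0.079, adjusted p = 0.000393), and -0.37 after rescaling (adjusted p = 0.00125). Reads of Hspe1 may be shared with near-identical copies, so its level is uncertain.

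Although read from the shared stretch of DNA shown above, the 2 genes did not change by the same amount. Hspd1 stood at 1.17 to 1.52 times the FPKM of Hspe1 in CD8+4T1 and at 1.55 to 1.81 times in CD8+4T1+NaAc, without overlap for the entries as listed. The log2 difference was 0.28 (exact permutation test, two-sided, p = 0.00794, adjusted 0.0238), and the uncertainty of the level of Hspe1 holds for this ratio too. The listed positions of the genes overlap at their 5′ ends on opposite strands, and the strand setting of the counting is not given in the sources used here. Hspe1 is also the shorter gene, at 1474 listed bases against 2642, and short genes fell more in these data: of protein-coding genes of at least 10 FPKM, 53.8% of the 435 under 1500 bases were called lower, against 39.7% of the 1214 from 1500 to 3000 bases. The part of length in the changed ratio was not tested. Against Hspa9, the mitochondrial HSP70 that hands proteins to the chaperonin, Hspd1 differed by 0.01 on the log2 scale (exact permutation test, two-sided, p = 0.857), with ratios of 1.46 to 1.58 and 1.42 to 1.65.

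Hspb1 (ENSMUSG00000004951; chromosome 5, 135916773 to 135918417), a small heat shock protein that holds unfolding proteins and binds actin filaments, was the lowest of the 10 in CD8+4T1 and moved the other way. With NaAc, Hspa1a was the lower of these 2 genes in every sample. Hspb1 was at 1.51, 1.45, 1.72, 1.94 and 1.47 FPKM in CD8+4T1 and at 3.91, 3.96, 4.41, 4.24 and 4.91 FPKM in CD8+4T1+NaAc. Every sample with NaAc was above every sample without. The mean rose from 1.62 ± 0.212 to 4.29 ± 0.401 FPKM (SD, n = 5), with a log2 fold change of 1.36 (SE 0.10, adjusted p = 1.7e-05), on 25 to 84 fragments per sample. The rise remained after rescaling, at 1.53 (adjusted p = 5.6e-06). In the same samples 9 of the 12 epithelial and 4T1 markers tested were called higher (median log2 fold change 2.62 over the 12). The part of these markers in the level of Hspb1 was not tested.

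**Figure D3:**
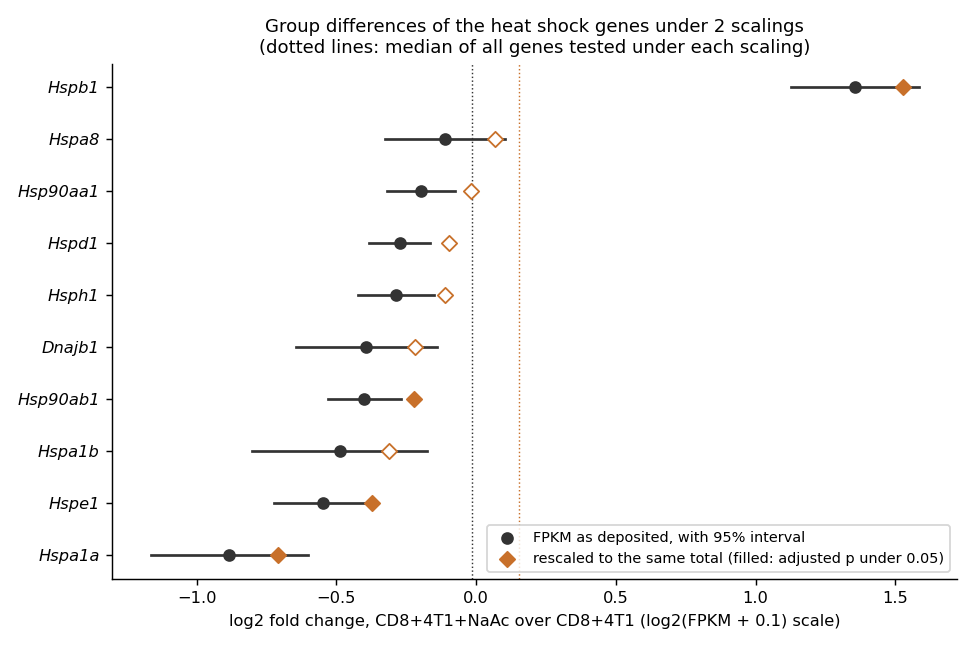
Log2 fold change of CD8+4T1+NaAc over CD8+4T1 for the 10 genes (horizontal axis, log2(FPKM + 0.1) scale), as deposited (black, with 95% intervals) and after rescaling to the same total (diamonds, filled where called). Hspa1a, Hspe1, Hsp90ab1 and Hspb1 are called under both scalings, and Hspa8 changes sign.

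The level of a gene moved with its difference between the groups over the whole table, in bins set after the data were seen. Among the 2438 genes of 0.5 to 1 FPKM 3.77% were called lower, and this share was 30.8% from 10 to 30 FPKM, 51.4% from 100 to 300 FPKM and 58.9% of the 129 genes above 300 FPKM. The median log2 fold change went from 0.10 in the lowest bin to -0.34 in the highest. Hsp90ab1, at -0.40, was close to the median of its bin, as were Hsp90aa1 and Hspd1 to that of theirs (-0.23), while Hspa8 was above and Hspe1 below it. Hspa1a and Hspb1 lay far below and far above the median of 0.08 from 1 to 5 FPKM, and Hspa1b below that of -0.01 from 5 to 10 FPKM. Hsph1 and Dnajb1 lay below the median of -0.08 of genes from 10 to 30 FPKM. The part of level in the changes of the 10 genes was not tested.

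**Figure D4:**
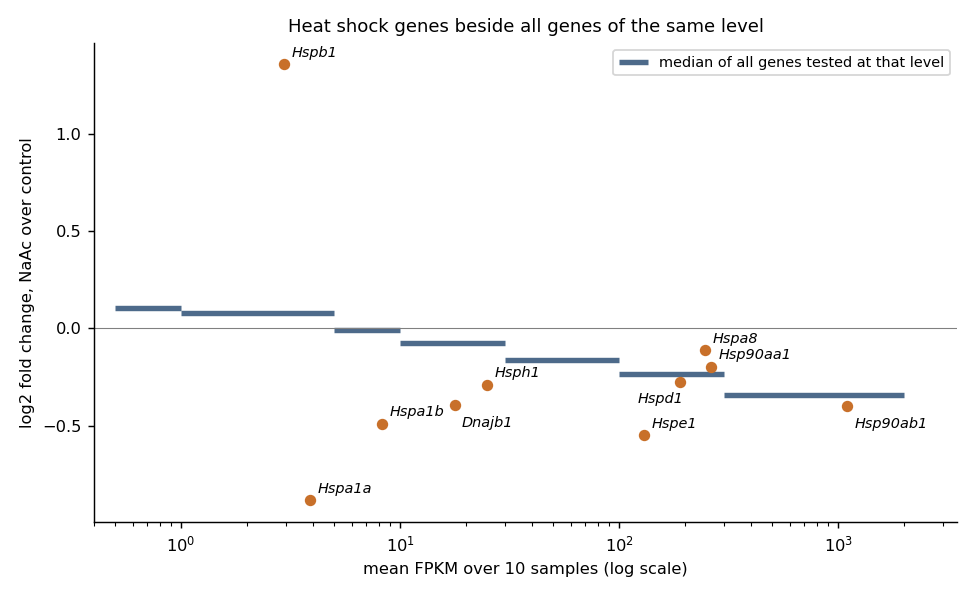
Log2 fold change of CD8+4T1+NaAc over CD8+4T1 (vertical axis) against mean FPKM over the 10 samples (horizontal axis, log scale) for the 10 heat shock genes (orange points), with the median of all genes tested in each of 7 level bins (blue bars). Hsp90ab1, Hsp90aa1 and Hspd1 lie near the bars, Hspa1a, Hspa1b, Dnajb1, Hsph1 and Hspe1 below them, and Hspa8 and Hspb1 above.

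The other genes of chaperone pathways were followed through 9 lists of 93 genes, of which 86 were tested. Of these 40 were called lower, 3 higher and 43 were not called, with a median log2 fold change of -0.17. All genes tested had 19.0% called lower, 17.6% higher and a median of -0.02. After rescaling to the same total 13 of the 86 were called lower and 17 higher, with a median of 0.01, beside 8.83% lower, 31.2% higher and a median of 0.16 for all genes. The counts of each list are read beside these shares, and no list was tested as a whole. The share of all genes called lower also rose with level. It was 30.8% from 10 to 30 FPKM, 43.4% from 30 to 100 FPKM and 51.4% from 100 to 300 FPKM. The part of level in the counts of the lists was not tested.

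Among the regulators, the messages of the heat shock factors were not called. Hsf1, the main factor of the heat shock response, was at 6.74 ± 0.455 FPKM in CD8+4T1 and 6.69 ± 0.523 in CD8+4T1+NaAc (SD, n = 5), with a log2 fold change of -0.01 (adjusted p = 0.919). Hsf2 differed by 0.07 (adjusted p = 0.693). With 1 sample left out, Hsf1 ranged from -0.05 to 0.02 and Hsf2 from -0.01 to 0.17, without a call. Hsbp1, whose small protein binds HSF1 and dampens it, fell by 0.60 on the log2 scale (adjusted p = 0.00101), from 37.9 to 50.9 FPKM down to 26.0 to 35.9 FPKM, and by 0.42 after rescaling (adjusted p = 0.00572). Rescaled, Hsf1 was at 0.16 and Hsf2 at 0.25, again not called.

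J-domain proteins and exchange factors of HSP70 were called lower in 12 of 19 (63.2%) and higher in 1, with a median log2 fold change of -0.23. Dnaja1, a J-domain partner of HSP70 that carries a lipid group, had the largest fall of that list, from 45.5 to 48.8 FPKM down to 21.8 to 33.3 FPKM (log2 fold change -0.91, adjusted p = 7.5e-05), and -0.74 after rescaling. Bag3, which links HSP70 and small heat shock proteins to autophagy, rose by a log2 fold change of 0.56 (adjusted p = 0.000530), from 5.55 to 7.20 FPKM up to 8.13 to 9.83 FPKM, and by 0.73 after rescaling. After rescaling, 3 genes of the list were called lower and 3 higher, with a median of -0.05. Of the other HSP70 and HSP110 genes 2 of 5 tested were called lower, while after rescaling none was called lower and 1 higher. Hspa4, a close relative of Hsph1, differed by -0.11 (adjusted p = 0.150), and by 0.07 after rescaling (adjusted p = 0.439).

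HSP90 cochaperones were called lower in 8 of 13 (61.5%) and higher in 1, with a median of -0.23. Stip1, which hands clients from HSP70 to HSP90, fell from 174 ± 14.5 to 138 ± 4.13 FPKM (SD, n = 5; log2 fold change -0.34, adjusted p = 0.00154), and by 0.16 after rescaling (adjusted p = 0.0368). The counts after rescaling were 3 lower and 4 higher, with a median of -0.05.

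Of the other small heat shock genes 5 of 8 were tested, and 1 was called in each direction; after rescaling 2 were called higher and 1 lower. Hspb8, the partner of Bag3 in selective autophagy, rose with Hspb1, from 0.399 to 1.55 FPKM up to 3.61 to 9.44 FPKM (log2 fold change 2.93, adjusted p = 9.7e-05; 3.10 after rescaling). As for Hspb1, 9 of the 12 epithelial and 4T1 markers tested were called higher in the same samples, and their part was not tested. Hspb11, which despite its symbol is known as a subunit of the transport machinery of cilia, fell from 10.7 to 13.1 FPKM down to 5.67 to 6.15 FPKM (log2 fold change -0.97, adjusted p = 1.2e-05; -0.79 after rescaling).

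Prefoldin and the TRiC chaperonin are the cytosolic folding machines for actin and tubulin. Prefoldin, which delivers these clients, had 4 of 6 subunits called lower and a median log2 fold change of -0.42. TRiC, which receives them, had 2 of 8 called lower (25.0%, beside 19.0% of all genes) and a median of -0.12. The TRiC genes lay between 30 and 300 FPKM. Of all genes tested from 30 to 100 FPKM 43.4% were called lower, and from 100 to 300 FPKM 51.4%. Pfdn6 fell from 90.9 to 136 FPKM down to 46.7 to 81.3 FPKM (log2 fold change -1.07, adjusted p = 0.000410; -0.89 after rescaling), and Vbp1 from 41.0 to 45.9 FPKM down to 26.6 to 31.6 FPKM (-0.58, adjusted p = 4.3e-05; -0.41 after rescaling). Pfdn2 was called at -1.20 (adjusted p = 0.0123; -1.02 and 0.0279 after rescaling), but sample 1 with NaAc, at 57.6 FPKM, was as high as the samples without it, which ran from 46.4 to 57.9 FPKM. After rescaling, 3 prefoldin genes were called lower and none higher, and 1 TRiC gene was called in each direction. Whether the lists differ from each other was not tested.

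In the mitochondria 5 of 14 other chaperones and proteases (35.7%) were called lower and none higher, with a median of -0.15; after rescaling 1 was called lower and 4 higher. Hspa9 fell by 0.28 on the log2 scale (adjusted p = 0.00301), and its call was lost after rescaling (adjusted p = 0.197). In the endoplasmic reticulum 5 of 12 chaperones (41.7%) were called lower, with a median of -0.12, and after rescaling none was called lower and 2 higher. Hsp90b1, the HSP90 of that compartment, fell by 0.20 (adjusted p = 0.0111), with -0.02 after rescaling (adjusted p = 0.803). Hspa5, its HSP70, was at 201 ± 8.10 FPKM in CD8+4T1 and 225 ± 22.3 in CD8+4T1+NaAc (SD, n = 5; log2 fold change 0.16, adjusted p = 0.0994), and was called higher after rescaling (0.34, adjusted p = 0.00188). It was also called higher without sample 1 of CD8+4T1+NaAc (0.21, adjusted p = 0.0113).

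**Figure D5:**
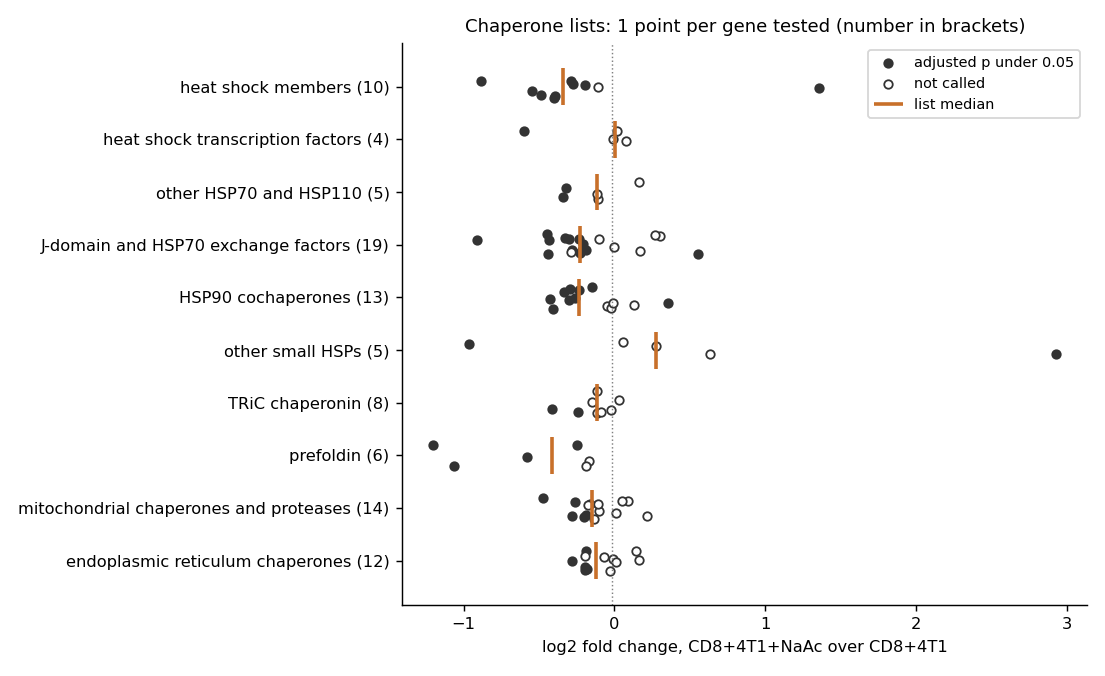
Log2 fold change of CD8+4T1+NaAc over CD8+4T1 (horizontal axis, FPKM as deposited) for each gene tested, by list (vertical axis), filled where called, with the list median in orange and the median of all genes as a dotted line. Most lists sit left of the dotted line; Hspb1 (1.36) and Hspb8 (2.93) are the points furthest right.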

How the data were processed

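RNA of purified CD8+ T cells from 10 samples (5 CD8+4T1, 5 CD8+4T1+NaAc) was analysed from the FPKM table that the authors deposited, with 1 column per sample and no pooling. An other column that the authors deposited, the length of each gene, was used unchanged. The submitters' processing notes name fastp, HISAT2 (2.0.5), StringTie (1.3.3b) and featureCounts (1.5.0-p3), and the methods name DESeq2 for the authors' own comparison. The genome build and the strand setting are not given in the sources used here: positions of genes are as the table lists them, and promoters, from RefSeq, are on GRCm38.p6. FPKM times length gave whole fragments for 100% of values (within 0.1), from which the depth of each sample and the fragments behind each value were taken.

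Genes averaging 0.5 FPKM or more were compared by limma 3.58.1 (R 4.3.3) with trend and robust moderation on log2(FPKM + 0.1), where the added 0.1 understates changes of low genes; calls are Benjamini-Hochberg adjusted p under 0.05 over all 15704 genes. The fit was also tested on simulated data. Ratios within a sample were compared by exact permutation over all splits of 5 and 5. Alternatives were pseudocounts of 1 and 0.01, no filter, a stricter filter (5 FPKM), 2 rescalings (same total, median ratio), plain moderation, the replicate block, protein-coding genes alone, voom on recovered fragments, adjusted p under 0.01, summed copies and left-out samples; scaling to T cell markers and ratios with summed copies were added after seeing the data.

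The 10 genes and all lists were chosen with earlier results of these data known. Named are the 10 genes, listed pathway genes called with an absolute log2 fold change over 0.5, 8 pathway genes fixed by name, markers, copies, and the 2 genes nearest in pattern to each of the 10. Some genes, including a marker, are not reported here. Figures were drawn with matplotlib 3.10.9.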

Additional observations from a re-analysis of the deposited data

Results flagged for a closer look

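In 64 groups of 5 values (named genes and ratios), 9 had a highest or lowest sample set apart from the other 4 by more than 0.71 of the range of the group, where chance gives about 1 in 20, or 3.2. Sample 1 of CD8+4T1+NaAc accounted for 5 of them and sample 1 of CD8+4T1 for 2.

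Hspa1b was highest in sample 1 of CD8+4T1, with a gap of 0.753 of the range. Hspa8 was lowest in sample 1 of CD8+4T1+NaAc (0.743), Pfdn2 (0.859) and Pfdn6 (0.788) were highest there, and Hspa4 was highest in sample 1 of CD8+4T1 (0.772). Among the ratios, Hsp90aa1 to Hsp90ab1 was lowest (0.831) and Hsph1 to Hspa8 highest (0.724) in sample 1 of CD8+4T1+NaAc. In sample 5, Bag3 was lowest in CD8+4T1+NaAc (0.715) and the ratio of Dnajb1 to Hspa8 was lowest in CD8+4T1 (0.768).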

How the results depend on the processing

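In place of 8 heat shock genes called lower, 3 were called after rescaling to the same total, 3 after scaling to T cell markers and 5 at an adjusted p under 0.01; with a mean of at least 5 FPKM the 1 called higher became 0, since Hspb1 was no longer tested (nor was Hspa1a). Pathway genes called lower went from 40 to 13 and 11 under these 2 scalings, and those called higher from 3 to 17 and 14, to 6 without both samples numbered 1, and to 3 to 7 with single samples left out. No sample left out by itself changed the count of 8. No called value reversed. Hsp90ab1, Hspa1a, Hspe1 and Hspb1 kept their call under every alternative in which they were tested.

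Same-numbered samples deviated together little or not at all (r from -0.03 to 0.07 over genes), and samples 1 and 4 correlated best with their own number. The main comparisons did not pair the samples by number, and these values cannot exclude such a pairing. With the replicate number as a block, 7 heat shock genes were called lower, Hspa1b being lost (adjusted p = 0.0590). For the ratios a block allows no p under 0.0625: the values were 0.20 for Hsp90aa1 to Hsp90ab1 (exact permutation p = 0.125), and -0.49, -0.28 and 0.28 for Hspa1a plus Hspa1b to Hspa8, Dnajb1 to Hspa8 and Hspd1 to Hspe1 (0.0625 each). Summed copies are not reported for Hspe1 or its ratio. Without both samples numbered 1 the ratio of Hsph1 to Hspa8 was -0.25, that of Dnajb1 to Hspa8 -0.24 and that of Hspd1 to Hspa9 -0.026. With 1 sample left out, Hsp90aa1 to Hsp90ab1 ranged from 0.17 to 0.26, Hsph1 to Hspa8 from -0.30 to -0.11 and Hspd1 to Hspa9 from -0.022 to 0.032. Apart from left-out samples, the cause of these changes was not tested. Depth limits Hspb1 and Hspa1a most.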

Other observations

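Over the 10 samples, the genes nearest in pattern to each heat shock gene were sought among 4673 protein-coding genes of at least 10 FPKM. The measure was the root mean square difference of centred log2 values, as a description with no test, and all these points share libraries and depth. A pattern includes the difference between the groups, so a like change in a gene found this way follows from how it was picked. Hspa1a was nearest to Dnaja1 (0.146), the J-domain partner described above, and Svbp (0.150). Hspe1 was nearest to 2 genes of oxidative phosphorylation, Atp5h of the ATP synthase (0.0682) and Cox4i1 of cytochrome c oxidase (0.0692), which were called at log2 fold changes of -0.62 and -0.55. Hspd1 was nearest to Yars (0.0308), a tRNA synthetase, and the splicing factor gene U2af1 (0.0366), and Hsp90aa1 to Xpot (0.0290), which exports tRNA, and Smg8 (0.0319). Hsp90ab1 was nearest to Ghitm (0.0394) and Gadd45b (0.0398), and Hspa8 to the translation start factor gene Eif1 (0.0285) and Gtf2f2 (0.0308). Hsph1 was nearest to Paf1 (0.0595) and Vav1 (0.0632), a signaling protein of T cell activation, Dnajb1 to Mlx (0.0668) and Wrnip1 (0.0843), and Hspa1b to Mthfd2 (0.142) and Gtse1 (0.145).

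Hspb1 was nearest to Serpinb9b (0.139) and Ccl9 (0.170), a chemokine gene, whose levels went from 18.9 to 46.9 FPKM and from 42.4 to 118 FPKM. Of the marker lists for cells other than T cells, 3 of 5 myeloid genes tested were called higher (also after rescaling). Among them, S100a8 was between 0 and 0.874 FPKM in CD8+4T1 and between 1.82 and 4.36 FPKM in CD8+4T1+NaAc. The myeloid list has 12 genes, of which only these 5 were high enough to be tested and 1 was at 0 FPKM in every sample. Cd68, the myeloid marker with the highest level, was not called (log2 fold change -0.17, adjusted p = 0.133). The sums of the myeloid list overlapped (26.1 to 37.0 and 31.0 to 37.5 FPKM). None of the 2 B cell genes or of the 1 NK cell gene tested was called, and after rescaling 1 of the B cell genes was called higher.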
